A study of Mus musculus with 25 samples.

Results

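Late and early stages of a NASH diet were compared in hepatocytes of C57BL/6 mice, with the 6 libraries of weeks 5 and 6 pooled against the 11 libraries of weeks 1 to 3. These are 17 of the 25 libraries of a time course in which mice were fed to develop NASH, non-alcoholic steatohepatitis, a fatty liver disease with inflammation and cell injury. The late group held 3 libraries of week 5 and 3 of week 6, and the early group held 4, 3 and 4 libraries of weeks 1, 2 and 3. The 3 libraries of week 4 and the 5 of normal diet did not enter the comparison and are given as levels only. All mice carried the same strain label, with no genetic change or drug named, and the sources used here do not give the diet's composition or the animals' sex and age. Time on the diet and age at harvest cannot be told apart. Hepatocytes were freed with collagenase, spun down slowly and sorted by flow cytometry, and polyadenylated RNA was sequenced from its 3′ end. The labels do not say that the libraries come from separate mice, so a p-value reflects library-to-library spread, which may be technical.

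The hepatocyte is the main cell of the liver and makes most plasma proteins, bile acids, lipoproteins and drug-metabolising enzymes. Part of its programme is set by pituitary growth hormone, whose pulsed secretion in male mice supports a group of male-biased genes, among them the major urinary proteins. Another part is set by position in the lobule, where Wnt ligands from endothelial cells of the central vein sustain the pericentral genes. In steatohepatitis, resident macrophages (Kupffer cells), recruited macrophages, sinusoidal endothelial cells and stellate cells, the liver's matrix-producing cells, take part beside the hepatocytes.

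The 17 libraries held 5715248 to 9148584 counts each, and levels are given as CPM, counts scaled to a common library total with a correction for composition (TMM). The 12 hepatocyte markers had a mean level of 11.31 ± 0.04 log2 CPM in late libraries and 11.71 ± 0.07 log2 CPM in early libraries (SD, n = 6 and 11) and summed to 86925 to 97352 CPM in late libraries, against 96968 to 120877 CPM in early libraries, which fits the label of the sorted cells. Markers of other liver cells were present in every stage, and their level moved with the comparison. A marker score, the mean log2 level of the Kupffer, sinusoidal endothelial and stellate lists, was 5.70 ± 0.23 in late libraries and 4.09 ± 0.47 in early libraries (SD, n = 6 and 11), with no overlap (5.35 to 5.96 against 3.41 to 4.88). The score was 4.82 ± 0.53 at week 4 and 3.32 ± 0.71 on normal diet (SD, n = 3 and 5). The summed Kupffer markers were 1673 to 2198 CPM in late libraries, against 454 to 1469 CPM in early libraries. The summed sinusoidal endothelial markers were 1986 to 2932 CPM in late libraries, against 477 to 1029 CPM in early libraries. Stellate and fibroblast markers summed to 550.1 to 1192 CPM in late libraries, against 104 to 462 CPM in early libraries. Of the defining markers of other cells, the neutrophil gene Ly6g and the erythroid gene Slc4a1 had no count in any of the 17 libraries, and the B cell gene Cd79a had none in the early libraries. Other members of their lists were present. Monocyte, dendritic cell and neutrophil markers summed to 759 to 1090 CPM in late and 243 to 691 CPM in early libraries. The sums were 25.1 to 84.5 and 10.4 to 48.0 CPM for erythroid and platelet markers, and 41.5 to 51.4 and 13.8 to 40.4 CPM for lymphocyte markers. In bulk libraries of this kind, fewer cells of a type and less RNA per cell cannot be told apart.

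Of 11081 tested genes, 4211 differed between late and early libraries at a Benjamini-Hochberg adjusted p under 0.05 in edgeR's quasi-likelihood test, which is 38% of the genes. The call was higher in late libraries for 2179 genes (19.7%) and lower for 2032 genes (18.3%). Large changes were mostly rises: 1297 called genes were at least 2-fold higher (11.7%) and 118 were at least 2-fold lower (1.06%). The late and early libraries did not overlap for 952 genes that were higher in late libraries (8.59%) and for 243 that were lower (2.19%). The median log2 fold change over all tested genes was -0.04, and fold changes below, in parentheses or after "rose by", are on the log2 scale, late over early, with the standard error (SE) where one is given. Scaling by library size alone moved that median to 0.16 and changed the split to 3257 higher and 502 lower. Scaling to 12 hepatocyte markers moved it to 0.35, with 6037 higher and 166 lower. With the marker score as a covariate, 0 genes were called by edgeR, and 677 had an unadjusted p under 0.05. The score and the stage are closely tied in these libraries, so their parts in any single result cannot be told apart.

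**Figure D1:**
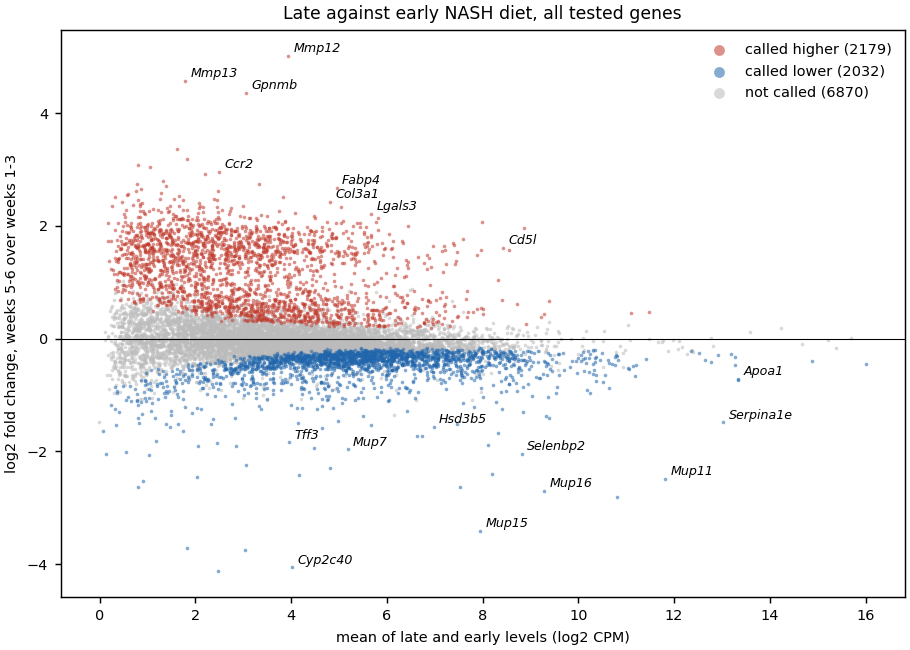
Each point is 1 of the 11081 tested genes, with the mean of its late and early levels on the x axis (log2 CPM) and its log2 fold change, weeks 5 and 6 over weeks 1 to 3, on the y axis. The 2179 genes called higher (red) reach up to Mmp12, and among the 2032 called lower (blue) the major urinary protein genes combine a high level with a large fall.

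Neither pooled stage held a called difference of its own in the same test. Between weeks 6 and 5, 0 genes were called by edgeR (0% of 11081), 342 had an unadjusted p under 0.05, and DESeq2 and limma voom called 0 as well. Among weeks 1 to 3, 0 genes were called by edgeR (0%), 502 had an unadjusted p under 0.05, limma voom called 0 and DESeq2 called 9.

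Genes were then read by list, each list described by its counts and its median beside the background above. The filter let a low gene enter through the late libraries alone. In lists with low-level members the counts of rises, and the medians, are therefore partly set by entry. The medians of the lists stretched between -0.80 for growth hormone and male-biased genes and 2.29 for markers of lipid-associated macrophages. Lists of hepatocyte functions lay mostly at or below 0 under TMM scaling, and those of other cell types, matrix and proliferation above it. Ribosomal protein genes, used here as a group with no cell type of their own, had a median of -0.03 with 0 higher and 8 lower of 77, and their median turned to 0.37 when libraries were scaled to hepatocyte markers and 0.18 by library size alone.

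**Figure D2:**
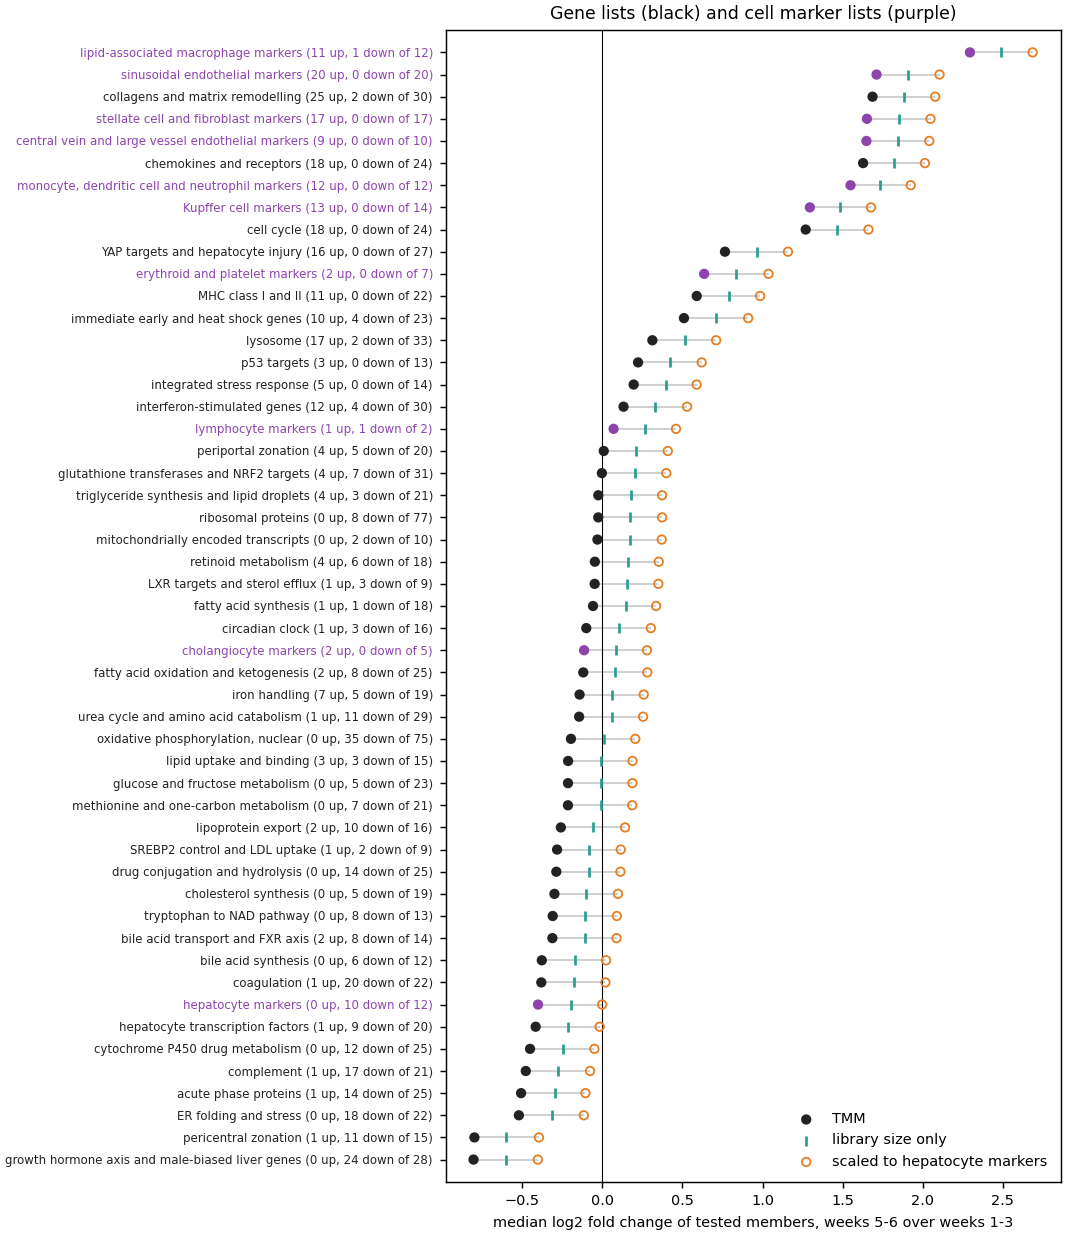
Each row is a gene list with the median log2 fold change of its tested members, weeks 5 and 6 over weeks 1 to 3, on the x axis, and the counts of members called higher and lower beside its name. Filled points use composition scaling (TMM), ticks library size alone and open circles scaling to hepatocyte markers. Male-biased and pericentral genes have the lowest medians under each of the 3 scalings. The P450, complement, acute phase, ER folding and hepatocyte transcription factor lists also stay below 0 under all 3, nearer to it.

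The major urinary protein genes made up 7 of the 12 largest called falls, counting genes whose stages did not overlap and whose libraries averaged 10 CPM or more. These genes encode small secreted lipocalins that carry pheromones in mouse urine, and in male liver they depend on growth hormone. They lie in a cluster on chromosome 4 and are near-identical copies, so reads of 1 member can be counted for another and the value of each single member is uncertain. The sequences around the starts of 3 of them are alike in part, which does not show how alike the counted 3′ ends are. Capitals mark a 66-base run that all 3 share (RefSeq, GRCm38.p6, minus strand, 250 bases before to 50 after the annotated start, chr4:60662346-60662645, chr4:60070426-60070725 and chr4:61439655-61439954 in the order given).
Mup11: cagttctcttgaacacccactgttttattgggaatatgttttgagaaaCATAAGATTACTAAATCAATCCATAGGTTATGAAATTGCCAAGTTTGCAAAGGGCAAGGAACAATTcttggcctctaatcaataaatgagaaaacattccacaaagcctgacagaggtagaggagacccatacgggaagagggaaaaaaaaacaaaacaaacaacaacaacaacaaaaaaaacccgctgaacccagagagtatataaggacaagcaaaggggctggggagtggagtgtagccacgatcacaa
Mup7: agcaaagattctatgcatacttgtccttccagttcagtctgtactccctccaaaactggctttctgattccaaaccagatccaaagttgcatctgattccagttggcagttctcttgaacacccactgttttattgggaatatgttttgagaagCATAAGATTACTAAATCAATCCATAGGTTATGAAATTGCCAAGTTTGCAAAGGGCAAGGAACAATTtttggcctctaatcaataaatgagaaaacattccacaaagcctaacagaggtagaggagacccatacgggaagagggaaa
Mup15: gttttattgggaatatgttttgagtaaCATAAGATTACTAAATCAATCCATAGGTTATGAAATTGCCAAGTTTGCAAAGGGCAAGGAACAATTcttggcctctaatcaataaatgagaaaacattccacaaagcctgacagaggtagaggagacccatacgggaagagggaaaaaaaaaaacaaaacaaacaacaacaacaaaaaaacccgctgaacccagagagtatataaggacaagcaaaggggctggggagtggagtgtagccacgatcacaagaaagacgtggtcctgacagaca
Over the 5 members of the largest falls with a promoter in that table, the longest run shared by a pair was between 42 and 154 bases.

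Mup11, the most abundant of these, had 656 to 2110.1 CPM (median 906) in late libraries, against 2136 to 10622 CPM (median 4783) in early libraries. The groups did not overlap, and its log2 fold change was -2.49 ± 0.41 (SE, adjusted p = 1.5e-04). The highest late library, replicate 1 of week 5, lay just under the lowest early ones. Mup15 had 15.5 to 88.9 CPM (median 36.2) in late libraries, against 91.2 to 1059.9 CPM (median 274) in early libraries, and its log2 fold change of -3.41 ± 0.63 was the largest of those falls. Early libraries spread over a wider range than late ones for both genes. Mup16, Mup18, Mup7, Mup10 and the pseudogene Mup-ps13 also fell without overlap, with log2 fold changes of -2.70, -2.40, -1.97, -1.54 and -2.42.

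Other male-biased genes fell with them. Of 28 tested members of the growth hormone and male-biased list, 24 were called lower and 0 higher, with a median of -0.80, which was -0.60 by library size alone and -0.40 under hepatocyte marker scaling. The list's mean level was 7.50 ± 0.23 log2 CPM in late libraries and 8.51 ± 0.25 log2 CPM in early libraries (SD, n = 6 and 11). Selenbp2, a selenium-binding protein, had 83.4 to 278 CPM (median 163) in late libraries, against 318 to 1215 CPM (median 695) in early libraries, a log2 fold change of -2.04 ± 0.32 with no overlap (adjusted p = 9.1e-05). Hsd3b5, a male-specific steroid reductase, had 32 to 116 CPM (median 57.9) in late libraries, against 126 to 239.8 CPM (median 198) in early libraries, and likewise did not overlap (-1.57 ± 0.24). Serpina1e, a member of the antitrypsin family whose paralogs may share reads, had 2909.5 to 6146 CPM (median 4148) in late libraries, against 7658 to 16396 CPM (median 13425) in early libraries (-1.49 ± 0.20). Every late library lay below every early one for these 3 genes. Nudt7, a peroxisomal coenzyme A hydrolase, changed by -1.02 ± 0.11, with 283 to 465 CPM (median 334) in late libraries and 544 to 855 CPM (median 705) in early libraries. The remaining large falls were the glucuronosyltransferase Ugt2b38 (-1.94), the pseudogene Adh6-ps1 (-1.72) and Tff3, a trefoil peptide (-1.84), all without overlap.

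**Figure D3:**
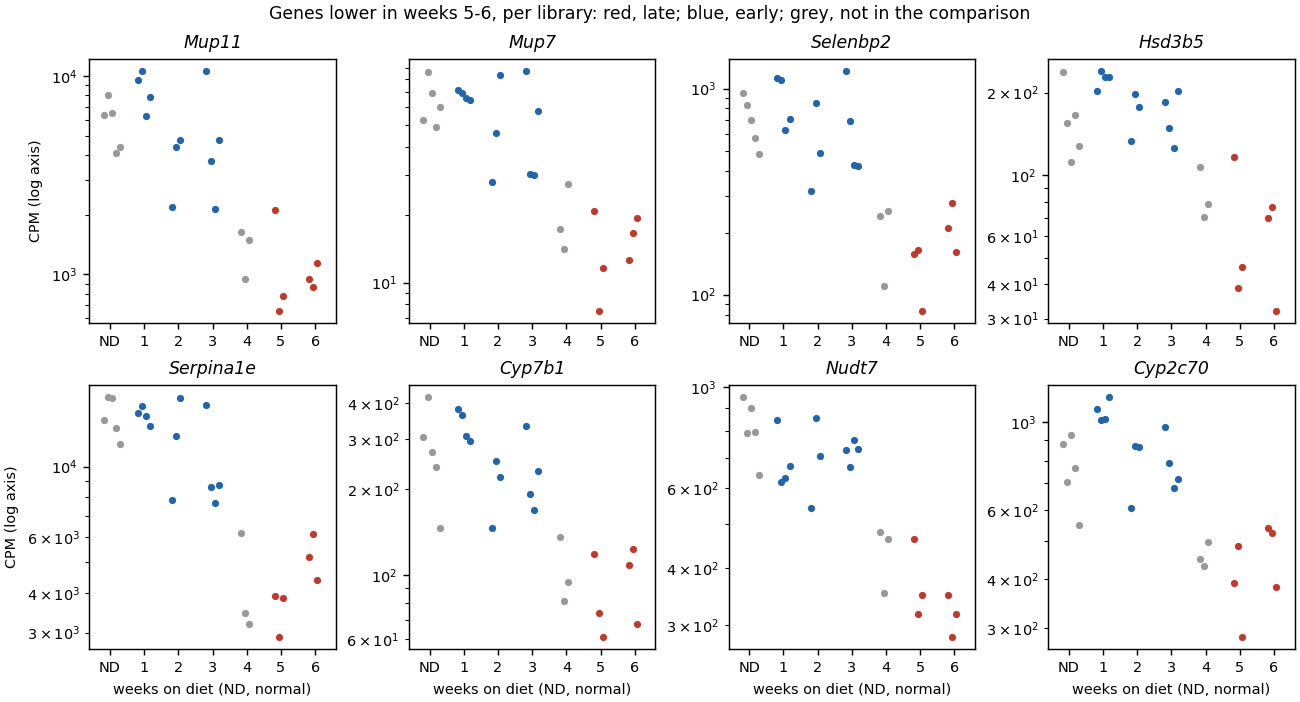
Levels of 8 genes per library (CPM, log axis) by weeks on the NASH diet, with normal diet at the left; late libraries are red, early libraries blue, and week 4 and normal diet grey. In each panel the 6 late libraries lie below the 11 early ones, and the week 4 libraries lie near the late ones for Mup11 and Serpina1e.

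Pericentral genes fell as a group. Of 15 tested members, 11 were called lower and 1 higher, with a median of -0.80 and of -0.40 under hepatocyte marker scaling, where 3 were called lower. Cyp1a2, a pericentral drug-metabolising enzyme, had 84.8 to 286 CPM (median 114) in late libraries, against 210.2 to 861 CPM (median 468) in early libraries, and fell by 1.68 on the log2 scale (adjusted p = 0.0012). Its groups overlapped. Rnase4, a secreted ribonuclease, also overlapped between the stages, with 185 to 466 CPM (median 242) in late libraries and 289 to 1067 CPM (median 634) in early libraries (-1.30 ± 0.28). Rgn, a calcium-binding lactonase, changed by -0.80 ± 0.20, a call that was lost without week 6 (adjusted p = 0.0665) and under hepatocyte marker scaling (-0.40, adjusted p = 0.104). The periportal list had 4 higher and 5 lower of 20 and a median of 0.01. Its median was 0.21 by library size alone and 0.41 under hepatocyte marker scaling, where 12 were higher and 1 lower. Within it, the adhesion molecule Cdh1 fell without overlap (-0.78 ± 0.10). Cps1, the first enzyme of the urea cycle, had 459.7 to 849 CPM (median 643) in late libraries, against 862 to 1135 CPM (median 1014) in early libraries (-0.57 ± 0.11), and was not called under hepatocyte marker scaling (log2 fold change -0.17, adjusted p = 0.191).

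Drug-metabolising enzymes were lower in part. Of 25 cytochrome P450 genes, 12 fell and 0 rose, and of 25 conjugation and hydrolysis genes 14 fell and 0 rose. Their medians were -0.45 and -0.29. Under hepatocyte marker scaling, 6 P450 genes were higher and 4 lower (median -0.05), and 4 conjugation genes were higher and 4 lower (median 0.11). Cyp2c40 had the largest fall of the P450 list (-4.06 ± 0.86), with 0.445 to 3.75 CPM (median 1.29) in late libraries. Its early libraries spread over 3.64 to 113 CPM (median 17.7), with 33.0 to 113 CPM at week 1 and 3.64 to 13.3 CPM at week 3. Only the lowest week 3 library (3.64 CPM) lay under the highest late one (3.75 CPM), and the pooled change mixes unlike early weeks. Among weeks 1 to 3 edgeR gave an unadjusted p of 7.6e-04 (adjusted p = 0.63). Limma voom did not call the late fall (adjusted p = 0.0519). Cyp2c genes are close paralogs and may share reads. Cyp2c70, which makes muricholic acids in mice, had 286 to 541 CPM (median 438) in late libraries, against 606 to 1159.7 CPM (median 873) in early libraries, with no overlap (-1.03 ± 0.15). The glucuronosyltransferase Ugt2b1 and the carboxylesterase Ces3b fell without overlap, by 0.96 and 0.69 on the log2 scale.

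Bile acid genes changed on both the synthesis and the transport side. Of 12 synthesis genes 6 fell and 0 rose (median -0.38, 0.02 under hepatocyte marker scaling). Cyp7b1, the oxysterol hydroxylase of the alternative synthesis route, had 61 to 123.4 CPM (median 91.3) in late libraries, against 147 to 381 CPM (median 252) in early libraries. The stages did not overlap (-1.51 ± 0.22, adjusted p = 3.3e-05). Cyp27a1, which oxidises the sterol side chain, fell without overlap as well (-0.79 ± 0.12). Among transport genes, 8 of 14 fell and 2 rose (median -0.31, 0.09 under hepatocyte marker scaling). The bile salt export pump Abcb11 had 149 to 233 CPM (median 186) in late libraries, against 270.2 to 349 CPM (median 301) in early libraries (-0.71 ± 0.09). The organic anion uptake carrier Slco1a1 changed by -0.92 ± 0.12. Abcc4, an export pump of the blood-facing membrane, went the other way, with 4.45 to 7.81 CPM (median 6.34) in late libraries and 1.29 to 3.66 CPM (median 2.24) in early libraries (1.51 ± 0.20). None of these 3 transporters overlapped between the stages.

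Secreted plasma proteins and the folding machinery of the endoplasmic reticulum were lower under TMM scaling, and the coagulation list alone of these turned sign under hepatocyte marker scaling. In the complement list 17 of 21 fell and 1 rose (median -0.48), in the coagulation list 20 of 22 fell and 1 rose (median -0.38), and in the folding list 18 of 22 fell and 0 rose (median -0.52). Hepatocyte markers themselves had 10 of 12 lower and a median of -0.40, close to these values. Under hepatocyte marker scaling the medians were -0.08, 0.02 and -0.12, and 6, 2 and 2 members were called lower. C9, of the membrane attack complex, had 733 to 995 CPM (median 757) in late libraries, against 1034 to 2261 CPM (median 1455) in early libraries (-0.92 ± 0.15). C1ra, a protease that starts the classical pathway, fell without overlap (-0.74 ± 0.10). The clotting factors F5 and F10 fell without overlap too, by 0.62 and 0.55 on the log2 scale. Dnajc3, a chaperone of the endoplasmic reticulum, had 263 to 343 CPM (median 298) in late libraries and 351 to 816 CPM (median 464) in early libraries (-0.68 ± 0.15), and Sel1l, of the degradation machinery there, changed by -0.54 ± 0.12. F10, Dnajc3 and Sel1l were not called under hepatocyte marker scaling, with adjusted p of 0.145, 0.0756 and 0.245, and Dnajc3 also lost its call without week 5 (adjusted p = 0.0509). Saa3, an acute phase protein, had 8.59 to 23.6 CPM (median 17.6) in late libraries and 24.7 to 95.2 CPM (median 41.7) in early libraries (-1.46 ± 0.30), and its call was lost without week 5 (adjusted p = 0.0602). Foxa3, a hepatocyte transcription factor, changed by -0.89 ± 0.19 and also lost its call without week 5 (adjusted p = 0.0679). Gata4, of the same list, rose (0.82 ± 0.11). Both overlapped between the stages, Gata4 narrowly (lowest late library 22.5 CPM, highest early library 22.8 CPM). The part of other cell types in the rise of Gata4 was not tested.

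Lipid genes moved less as groups than in single members. Fatty acid synthesis had 1 gene higher and 1 lower of 18, and lipid droplet genes 4 higher and 3 lower of 21. Lipoprotein export genes had 10 of 16 lower and 2 higher (median -0.26, 0.14 under hepatocyte marker scaling). Apoa1, the main protein of high-density lipoprotein, had 6429 to 9194 CPM (median 7586) in late libraries, against 10956 to 15244 CPM (median 12216) in early libraries, without overlap (-0.71 ± 0.10). Apob, the scaffold of very-low-density lipoprotein, fell with an overlap (-0.86 ± 0.15). Cd36, a fatty acid translocase, had 49.3 to 89.3 CPM (median 70.6) in late libraries, against 11.7 to 29.4 CPM (median 18.4) in early libraries, and every late library was above every early one (1.86 ± 0.16, adjusted p = 2.2e-08). Cyp4a14, a fatty acid hydroxylase induced through PPAR-alpha, had 66 to 223 CPM (median 145) in late libraries and 9.74 to 94.8 CPM (median 29.3) in early libraries (1.99 ± 0.42), a call lost without week 5 (adjusted p = 0.0569). The lipid droplet protein Cidec and the desaturase Scd2 rose by 2.02 and 2.05 on the log2 scale from low levels. With the marker score as a covariate Cd36, Cyp4a14, Cidec and Scd2 changed by 0.93, 0.060, 1.27 and 0.95, and none was called. The part of other cell types in these rises was not tested. Of 19 cholesterol synthesis genes 5 fell and 0 rose, and their mean level in both stages, 4.23 in late and 4.54 log2 CPM in early libraries, lay under the 6.30 of normal diet. Its sterol demethylase Cyp51 changed by -0.58 ± 0.16, which library size alone (adjusted p = 0.0593), the omission of week 5 (adjusted p = 0.17) and hepatocyte marker scaling (-0.19, adjusted p = 0.306) did not call. The glycogen-targeting subunit Ppp1r3b fell (-1.04 ± 0.22).

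Macrophage genes were among the largest rises. Mmp12, macrophage elastase, had 15.4 to 45 CPM (median 30.6) in late libraries, against 0.162 to 2.64 CPM (median 0.763) in early libraries. The lowest late library was above the highest early one, and the log2 fold change was 5.01 ± 0.31 (adjusted p = 2.9e-09). Gpnmb, a glycoprotein of lipid-laden macrophages, had 5.38 to 27.6 CPM (median 15.6) in late libraries, against 0 to 2.78 CPM (median 0.331) in early libraries (4.36 ± 0.45). Its early levels were near or at 0, so the size of that change is imprecise. Mmp12 and Gpnmb both passed the filter through their late libraries, so for both a rise was largely set by entry. Lgals3, a galectin, was at 69.7 to 97.8 CPM (median 86.8) in late libraries, against 6.15 to 30.9 CPM (median 17.2) in early libraries, again without overlap (2.22 ± 0.26). Of 12 tested markers of lipid-associated macrophages 11 rose and 1 fell (median 2.29). The member that fell changed by -1.20, without overlap between the stages. The tetraspanin Cd63 and the actin-capping protein Capg were among the rises (2.27 and 2.62).

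Resident and recruited myeloid markers rose together. Of 14 tested Kupffer markers 13 rose and 0 fell (median 1.29), and of 12 tested markers of monocytes, dendritic cells and neutrophils 12 rose (median 1.55), with 8 further listed genes left untested for low counts. A low gene such as Ly6c2 (0.154 to 1.17 CPM in early and 1.72 to 2.75 CPM in late libraries) passed the filter through its late libraries. For such members, Ccr2, Cx3cr1, S100a4 and Ccl2 below among them, a rise was largely set by entry, so these counts lean towards rises. Clec4f, a lectin of Kupffer cells in mice, had 145 to 199 CPM (median 173) in late libraries, against 38.3 to 126 CPM (median 73.8) in early libraries (1.27 ± 0.19). Cd5l, a secreted macrophage protein, had 375 to 583 CPM (median 539) in late libraries, against 72.6 to 308 CPM (median 153) in early libraries (1.61 ± 0.26). Late libraries were higher without overlap for both. Clec1b and C1qa, further Kupffer genes, rose by 1.64 and 1.47. Ccr2, the receptor that draws monocytes out of the blood, had 4.36 to 17 CPM (median 9.82) in late libraries, against 0.60 to 2.51 CPM (median 1.16) in early libraries, a change of 2.96 ± 0.28. Cx3cr1, another monocyte receptor, changed by 2.91 ± 0.27, and Ly6c2 and S100a4 by 1.91 and 2.79. In the chemokine list 18 of 24 rose and 0 fell. Cxcl2, which attracts neutrophils, had 13.9 to 54.8 CPM (median 19) in late libraries and 1.5 to 9.23 CPM (median 3.74) in early libraries (2.51 ± 0.34), with the highest value in 1 week 5 library. Ccl2, the ligand of Ccr2, had 3.76 to 9.44 CPM (median 7.82) in late libraries, against 0.166 to 3.47 CPM (median 1.23) in early libraries (2.33 ± 0.30). The whole group moved with the summed markers given above, and the part of cell mixture in it was not tested.

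**Figure D4:**
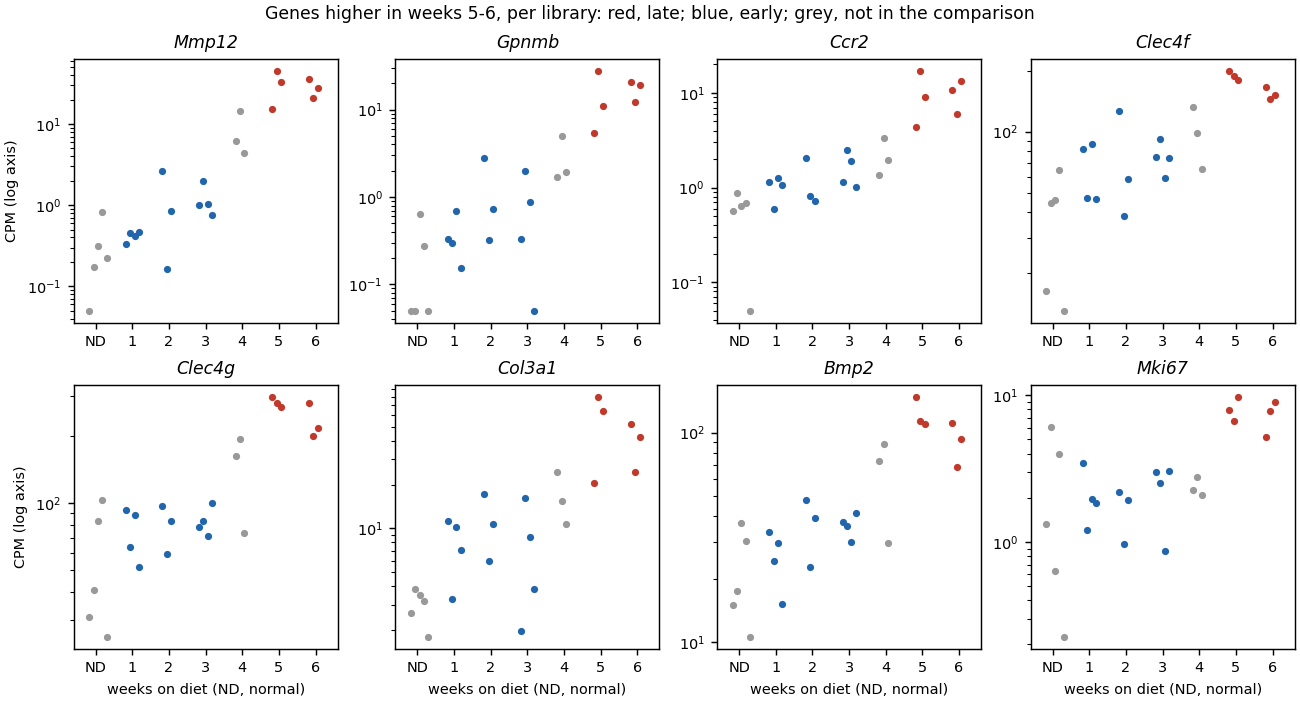
Levels of 8 genes per library (CPM, log axis) by weeks on the NASH diet, with normal diet at the left and colours as in the plot of falling genes; a count of 0 is drawn at 0.05 CPM. The 6 late libraries lie above the 11 early ones in every panel, and at week 4 Mki67 and Ccr2 lie near the early libraries.

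Endothelial genes rose as well. All 20 tested sinusoidal endothelial markers were called higher (median 1.71), and 17 of them had no overlap. Clec4g, a sinusoidal lectin, had 199 to 297 CPM (median 273) in late libraries, against 51.8 to 100.4 CPM (median 82.8) in early libraries (1.70 ± 0.12, adjusted p = 5.0e-09). Gpihbp1, which holds lipoprotein lipase on capillary walls, had 67.2 to 102 CPM (median 96.1) in late libraries, against 12 to 30.4 CPM (median 22) in early libraries (2.08 ± 0.14). Fabp4, a fatty acid carrier of capillary endothelium and macrophages, had 18.2 to 74.5 CPM (median 58.3) in late libraries, against 5.54 to 14.2 CPM (median 7.62) in early libraries (2.67 ± 0.23). None of these overlapped. The abundant genes Ehd3, an endocytic protein, and Maf, a transcription factor, rose by 1.56 and 1.57. Fcgr2b, an Fc receptor, Clec14a, Egfl7 and the extracellular proteins Emilin1 and Tinagl1 rose by 2.33, 2.17, 1.91, 2.22 and 2.15, and the arrestin Arrb1 by 2.08.

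Endothelial signals that act on hepatocytes were among the rises. Of 10 tested central vein and large vessel markers 9 rose (median 1.65). Wnt2, a ligand of the pericentral programme, had 13.1 to 23.9 CPM (median 19.1) in late libraries, against 2.0 to 7.18 CPM (median 4.83) in early libraries (1.96 ± 0.19). Rspo3, which strengthens Wnt signals there, had 16.8 to 28.9 CPM (median 22.7) in late libraries, against 4.3 to 11.7 CPM (median 7.6) in early libraries (1.71 ± 0.18). Both were higher without overlap. With the marker score as a covariate Wnt2 changed by 0.47 and Rspo3 by 0.56, and neither was called by edgeR (adjusted p = 0.94 and 0.90). Bmp2, the endothelial signal for the iron hormone hepcidin, had 68.5 to 148 CPM (median 110.1) in late libraries, against 15.2 to 47.8 CPM (median 33.7) in early libraries (1.72 ± 0.18). Id1, a target of BMP signals, rose by 1.82, and Ltbp4, which binds latent TGF-beta, by 1.93. The part of cell mixture in these rises, and any effect on hepatocytes, was not tested.

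Stellate cell and matrix genes rose too. Of 20 listed stellate and fibroblast markers 17 were tested, and those were called higher (median 1.65), and of 30 matrix genes 25 rose and 2 fell (median 1.69). Col3a1, a fibrillar collagen, had 20.6 to 79.6 CPM (median 47.3) in late libraries, against 1.99 to 17.3 CPM (median 8.7) in early libraries (2.43 ± 0.37, adjusted p = 6.6e-05). Col1a1, its partner in scar tissue, had 5.78 to 28.1 CPM (median 17.3) in late libraries and 0.749 to 6.64 CPM (median 1.74) in early libraries (2.74 ± 0.41), and these overlapped. Dcn, the proteoglycan decorin, had 221 to 476 CPM (median 370.5) in late libraries, against 48.3 to 214 CPM (median 131) in early libraries (1.47 ± 0.33). Lrat, which stores retinol in stellate cells, and Cygb, a stellate globin, changed by 1.41 ± 0.24 and 1.95 ± 0.29. Sparc and Lum rose by 1.64 and 1.85. Mmp13, an interstitial collagenase, had 4.73 to 8.6 CPM (median 6.37) in late libraries, against 0 to 1.08 CPM (median 0.14) in early libraries, so its change of 4.57 ± 0.41 rests on very low early levels. Mmp13 too passed the filter through its late libraries, so its rise was largely set by entry.

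Proliferation and injury genes rose. Of 24 tested cell cycle genes 18 rose and 0 fell (median 1.27). Mki67, a marker of cycling cells, had 5.16 to 9.71 CPM (median 7.86) in late libraries, against 0.87 to 3.47 CPM (median 1.96) in early libraries (1.87 ± 0.22). Top2a, the topoisomerase of dividing cells, had 11.5 to 21.5 CPM (median 17) in late libraries, against 3.22 to 8.97 CPM (median 4.59) in early libraries (1.67 ± 0.19). The cyclins Ccnd1 and Ccnd2 rose by 1.23 and 1.49, all 4 without overlap. In the list of YAP targets and injury genes 16 of 27 rose and 0 fell (median 0.77), among them the annexins Anxa2 and Anxa3 (1.66 and 1.97) and S100a11 (1.90). Of 33 lysosome genes 17 rose and 2 fell, and the protease Ctsd had 365 to 471 CPM (median 415) in late libraries, against 216 to 308 CPM (median 271) in early libraries (0.68 ± 0.08). Of 23 immediate early and heat shock genes 10 rose and 4 fell, and of 30 interferon-stimulated genes 12 rose and 4 fell (median 0.13). The immediate early genes Klf4 and Ier3 rose by 1.93 and 1.79, the interferon-stimulated genes Ifit3 and Oasl2 by 1.11 and 1.87, the antigen-loading gene H2-DMa by 1.39 and the amino acid transporter subunit Slc3a2 by 0.93. The abundant genes Gnai2, Tgm2 and Arpc1b rose by 0.84, 0.73 and 0.72. Many of these genes are also expressed in macrophages and endothelial cells, and the part of those cells in their rise was not tested.

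Week 4 entered neither stage, and its place relative to them differed between genes. On a scale with the early mean at 0 and the late mean at 1, genes called and at least 2-fold lower had a median week 4 position of 0.816 (quartiles 0.618 and 0.999), and 88 of the 118 (74.6%) lay between the stage means. Genes called and at least 2-fold higher had a median position of 0.444 (quartiles 0.340 and 0.540), and 1255 of the 1297 (96.8%) lay between them. These positions describe genes chosen on the late and early libraries, and the difference between both sets was not tested. The 3 week 4 libraries were unlike each other. Replicate 3 had a marker score of 4.27, inside the early range, against 5.31 in replicate 1 and 4.89 in replicate 2. In replicates 1, 2 and 3 the sinusoidal endothelial list was at 0.72, 0.73 and 0.068, the Kupffer list at 0.69, 0.45 and -0.11, the stellate list at 0.85, 0.30 and 0.31 and the cell cycle list at 0.51, 0.47 and -0.11, so a mean position of the endothelial, Kupffer and cell cycle lists depends on replicate 3 and that of the stellate list on replicate 1. The growth hormone and male-biased list was at 0.81, 0.88 and 0.68, nearer the late mean in each of the 3 libraries. Mup11 averaged 1361 CPM at week 4, beside 1084 CPM in late and 6094 CPM in early libraries, a position of 0.832. Serpina1e averaged 4266 CPM at week 4, beside 4396 CPM in late and 12313 CPM in early libraries, and so lay outside the stages, at a position of 1.05. Mki67 averaged 2.36 CPM at week 4, beside 7.71 CPM in late and 2.09 CPM in early libraries, and Ccr2 was at a position of 0.253. The bile acid synthesis list was at 0.14, 0.11 and -0.019 in the 3 libraries. Its members differed, with Cyp7b1 at a position of 0.867 and Cyp27a1 at 0.445.

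**Figure D5:**
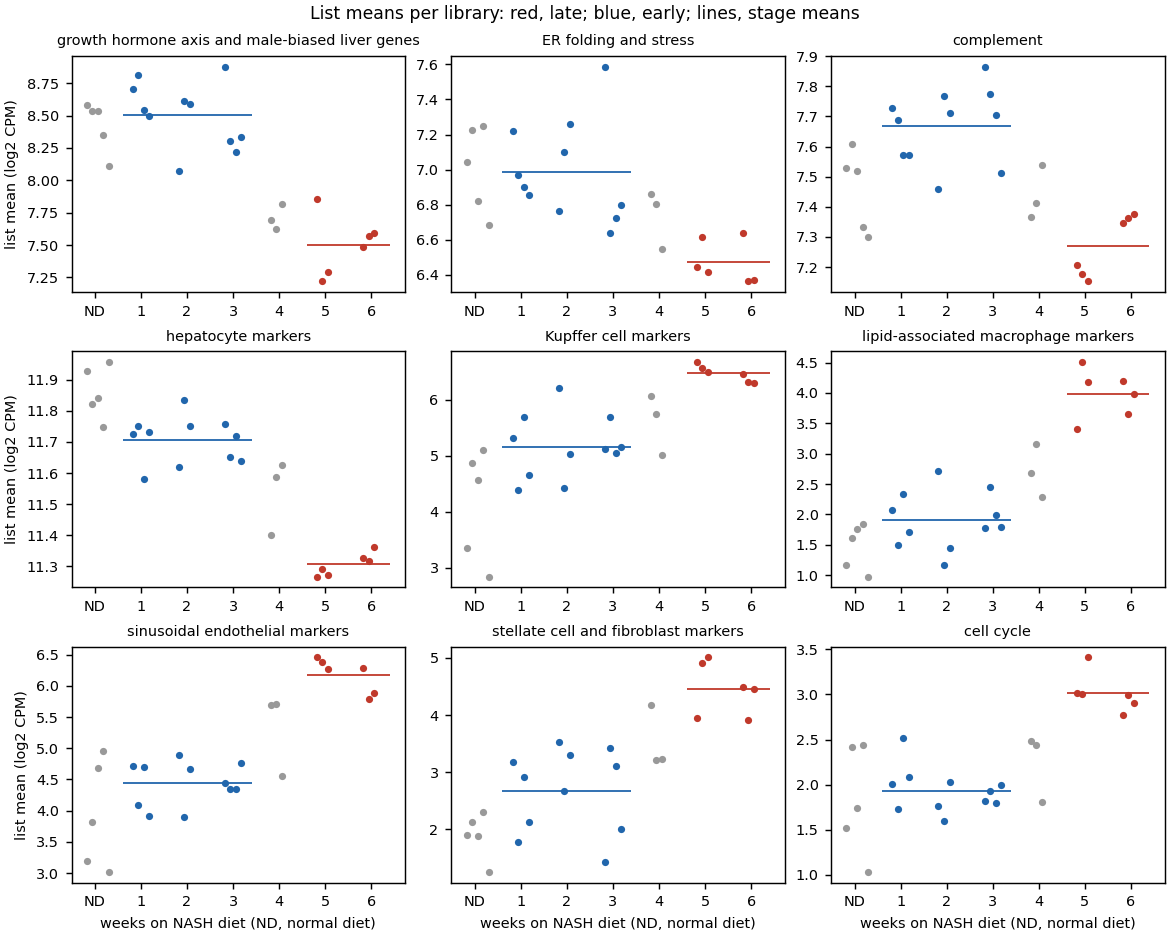
Mean level of 9 gene lists per library (log2 CPM) by weeks on the NASH diet, with normal diet at the left, late libraries in red, early in blue and horizontal lines at the stage means. The week 4 libraries lie near the late line for male-biased genes, while for sinusoidal endothelial, Kupffer and cell cycle genes 1 of them, replicate 3, lies near the early line.

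The promoters of 3 strongly rising genes are shown because each holds a match to the AP-1 site TGANTCA, in capitals, searched on both strands (RefSeq, GRCm38.p6, plus strand, chr9:7347124-7347423, chr9:7272264-7272563 and chr6:49036268-49036567 in the order given). The motif and the genes were chosen after their values were seen.
Mmp12: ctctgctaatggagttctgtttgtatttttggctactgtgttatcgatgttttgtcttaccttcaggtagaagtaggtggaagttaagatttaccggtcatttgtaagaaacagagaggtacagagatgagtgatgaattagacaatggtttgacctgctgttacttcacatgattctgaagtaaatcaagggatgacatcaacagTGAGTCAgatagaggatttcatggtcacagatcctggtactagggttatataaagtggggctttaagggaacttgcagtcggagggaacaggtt
Mmp13: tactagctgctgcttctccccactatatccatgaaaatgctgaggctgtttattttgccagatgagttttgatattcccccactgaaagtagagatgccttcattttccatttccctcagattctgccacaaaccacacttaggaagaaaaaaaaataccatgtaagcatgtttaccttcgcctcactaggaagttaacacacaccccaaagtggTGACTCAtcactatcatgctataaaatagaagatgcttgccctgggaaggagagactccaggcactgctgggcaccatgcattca
Gpnmb: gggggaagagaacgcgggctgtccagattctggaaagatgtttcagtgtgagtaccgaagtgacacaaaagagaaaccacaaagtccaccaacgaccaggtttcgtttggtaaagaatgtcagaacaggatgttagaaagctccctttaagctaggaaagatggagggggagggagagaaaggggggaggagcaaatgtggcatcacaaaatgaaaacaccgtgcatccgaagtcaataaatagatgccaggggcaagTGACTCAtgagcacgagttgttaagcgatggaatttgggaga
The match begins 44 bases before the start in Mmp12 and 35 before it in Mmp13, and 8 bases after it in Gpnmb, and a second annotated start of Mmp12 has none. Of all 32851 promoters of that length 2565 hold such a match (7.81%). It was found in 2 of 9 matched genes of the largest rises and in 1 of 8 of the largest falls. A gene was counted if any of its promoters held a match, so these counts are not on the same footing as the share of promoters. The genes among the 9 were Mmp12 and Tinagl1, each with another promoter that holds none. Mmp13 and Gpnmb are not among the 9. The STAT site TTCNNNGAA occurred in 2726 promoters (8.3%), in 0 of the 9 and in 0 of the 8. These matches describe the letters of the window only.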

How the data were processed

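The authors deposited a table of unnormalized read counts by gene symbol, with a column for each of the 25 libraries, and its values were checked to be whole numbers with unequal totals. Per the labels' protocols, the kit was QuantSeq 3′ FWD. FastQC, cutadapt, STAR 2.7.1a and GRCm39 are the tools and build listed in the submitters' processing notes. The sources used here name no counting tool or annotation. Sequences come from RefSeq tables of GRCm38.p6, so no coordinates are given for counted genes.

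Of 37085 symbols, 11081 passed filterByExpr by stage. Stages were compared with edgeR 4.0.16 (R 4.3.3), TMM factors and robust quasi-likelihood F-tests over 17 libraries (15 residual degrees of freedom), adjusted by Benjamini-Hochberg over all tested genes. Weeks 6 and 5, and weeks 1 to 3, were compared in the same way. The standard error is the size of the log2 fold change over the square root of F. Levels are TMM-scaled CPM computed from the deposited counts, with a prior count of 2 for log2 values. The 3′ counts hold no length term, so levels are compared between groups and not between genes.

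The comparison, the 51 gene lists and the tests were chosen with earlier results of these data known. Named genes are the 12 largest rises and falls averaging 10 CPM or more and the 8 largest of each averaging 100 CPM or more in early libraries, both among called genes without overlap. Up to 4 members with the smallest p per list were added, whether or not their libraries overlapped. The text gives a part of these. Provisional symbols (Gm numbers, Rik names) were skipped. Alternatives used DESeq2 1.42.0, limma 3.58.1, other scalings and filters, a replicate block, a marker score covariate, and each week or library left out. Pairs of libraries within a group differed beyond counting noise (chi-squared over degrees of freedom 5.42 to 32.2). The method was tested on simulated data.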

Additional observations from a re-analysis of the deposited data

Results flagged for a closer look

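Among the 6 late libraries, a value was singled out where its gap to the nearest other library was a larger share of the whole range than the critical value of Dixon's test. Chance alone gives about 1 such value in 20 groups, and 15 of 153 gene, list and score values met it. Replicate 1 of week 5 stood apart for Adh6-ps1 (73.4 CPM, the highest, against 51 CPM in the nearest), Cxcl2 (54.8 CPM, the highest, against 20.8 CPM in the nearest), Mup11 (2110.1 CPM, the highest, against 1147 CPM in the nearest), Nudt7 (465 CPM, the highest, against 349.7 CPM in the nearest) and Rnase4 (466 CPM, the highest, against 272 CPM in the nearest). Replicate 2 of week 6 stood apart for Ccl2 (3.76 CPM, the lowest, against 7.5 CPM in the nearest) and Foxa3 (101 CPM, the highest, against 60.3 CPM in the nearest). Replicate 3 of week 6 stood apart for Apob (848 CPM, the highest, against 513 CPM in the nearest), C9 (995 CPM, the highest, against 807 CPM in the nearest) and Gnai2 (218 CPM, the lowest, against 259 CPM in the nearest).

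In log2 CPM, 5 list means stood apart as well. The mean of tryptophan to NAD pathway was 5.58 in replicate 1 of week 5, the lowest, against 5.73 in the nearest. The mean of p53 targets was 3.71 in replicate 2 of week 6, the lowest, against 3.87 in the nearest. The mean of iron handling was 5.80 in replicate 2 of week 6, the lowest, against 6.17 in the nearest. The mean of cholangiocyte markers was 2.34 in replicate 1 of week 5, the lowest, against 2.85 in the nearest. The mean of erythroid and platelet markers was 2.95 in replicate 2 of week 5, the highest, against 2.08 in the nearest.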

How the results depend on the processing

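The 4211 calls were 4158 with DESeq2 size factors, 4370 with DESeq2, 4174 with limma voom, 5031 without a filter, 2986 with a filter of 5 CPM in 6 libraries, 4080 with weeks as 5 groups and 4619 with 7 groups over 25 libraries. By library size alone 502 genes were lower, and with scaling to hepatocyte markers, an alternative chosen after seeing the data, 6037 were higher and 166 lower. With the marker score as a covariate 0 were called, 0 of them higher and 0 lower (677 at an unadjusted p under 0.05, edgeR), and the cause was not tested. Without week 5, which leaves 3 late libraries, 2142 were called and 594 lower. Without week 6, which also leaves 3 late libraries, 3810 were called and 1643 lower, so the falls depended more on week 5. Leaving out 1 library gave 3574 (without replicate 2 of week 5) to 4596 calls (without replicate 2 of week 6), 1966 to 2398 higher and 1608 to 2323 lower. Among weeks 1 to 3, DESeq2 called 9. Deviations from the week mean were correlated between late and early libraries. Same-numbered pairs had r = -0.24 to 0.21 (3 of 18 over 0.1) and differently numbered pairs r = -0.25 to 0.37 (7 of 48 over 0.1). Pairs of weeks within a stage were not examined. The fit with the replicate number as a block called 4084 genes, 2133 higher and 1951 lower.

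The following list medians changed sign and moved by at least the spread between libraries (log2 fold change, late over early). By library size alone they were LXR targets and sterol efflux 0.15, triglyceride synthesis and lipid droplets 0.18, fatty acid oxidation and ketogenesis 0.082, glutathione transferases and NRF2 targets 0.20, urea cycle and amino acid catabolism 0.061, oxidative phosphorylation, nuclear 0.0080, mitochondrially encoded transcripts 0.17, ribosomal proteins 0.18, circadian clock 0.10, retinoid metabolism 0.16 and iron handling 0.061. Under hepatocyte marker scaling they were cholesterol synthesis 0.10, SREBP2 control and LDL uptake 0.12, LXR targets and sterol efflux 0.35, triglyceride synthesis and lipid droplets 0.37, lipid uptake and binding 0.19, lipoprotein export 0.14, fatty acid oxidation and ketogenesis 0.28, bile acid synthesis 0.024, bile acid transport and FXR axis 0.089, drug conjugation and hydrolysis 0.11, glutathione transferases and NRF2 targets 0.40, urea cycle and amino acid catabolism 0.25, tryptophan to NAD pathway 0.091, methionine and one-carbon metabolism 0.19, glucose and fructose metabolism 0.19, coagulation 0.0197, oxidative phosphorylation, nuclear 0.21, mitochondrially encoded transcripts 0.37, ribosomal proteins 0.37, circadian clock 0.30, retinoid metabolism 0.35, iron handling 0.26 and cholangiocyte markers 0.28. With the marker score as covariate the medians were SREBP2 control and LDL uptake 0.17, methionine and one-carbon metabolism 0.013, periportal zonation -0.17, integrated stress response -0.29, immediate early and heat shock genes -0.12, MHC class I and II -0.20, iron handling 0.063, Kupffer cell markers -0.12, stellate cell and fibroblast markers -0.47, cholangiocyte markers 0.10 and lymphocyte markers -0.35, and the genes C1qa -0.10, Cd5l -0.0203, Clec4f -0.049, Col1a1 -0.40, Col3a1 -0.32, Dcn -0.59, H2-DMa -0.17, Lrat -0.076 and Rgn 0.023. The marker score is itself the mean of the Kupffer, sinusoidal endothelial and stellate lists. The Kupffer and stellate medians and the member genes of those lists were thus adjusted for themselves, and their changes of sign are no separate result. The cause of the other changes was not tested. Smaller moves also crossed 0: fatty acid synthesis (-0.058) was 0.15 by library size and 0.34 under hepatocyte marker scaling, cholangiocyte markers were 0.085 by library size, triglyceride synthesis was 0.058 and glutathione transferases were 0.069 with the marker score, and glutathione transferases were 0.0029 with DESeq2 size factors. The cholangiocyte median, over 5 tested genes, was -0.11, and was 0.64 without a filter, 0.34 with 7 groups, 0.31 without week 3, 0.34 without week 5, 0.30 without week 6, 0.28 without replicate 3 of week 6 and -0.18 to 0.37 over the fits that leave out 1 library, the highest without replicate 1 of week 5. In data simulated at this depth for the late and early comparison over 11081 genes, 50.7% of 1.5-fold, 77.6% of 2-fold and 98.5% of 4-fold changes were recovered. The simulation changed 200 genes, as many up as down, and drew each gene independently. It lacks the many, mostly upward and shared changes of these data, so the rates need not hold for them.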
